A study of Mus musculus with 10 samples.

Results

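The comparison set open chromatin of mouse embryonic stem cells (ESC) against that of mouse embryonic fibroblasts (MEF), the pluripotent reference and the starting cells of a reprogramming study. Chromatin was profiled by ATAC-seq, in which a transposase inserts sequencing adapters into accessible DNA, and each of 10 libraries was deposited as a list of peaks. The 2 ESC and 2 MEF lists were merged where peaks overlapped by at least 1 bp, which gave 170098 regions. A region was gained if both ESC lists and neither MEF list had a peak in it, and lost in the reverse case. Gained regions numbered 33562, which is 19.7% of all regions, and lost regions 23446, or 13.8%. Of the rest, 19234 regions had a peak in all 4 lists (shared) and 93856 had any other pattern (mixed).

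The ESC were the line V6.5, of strain C57BL/6 x 129, grown with LIF on irradiated feeder cells and not sorted. The MEF, also C57BL/6 x 129, carried, at Col1a1, one polycistronic cassette for the factors Oct4, Sox2, Klf4 and Myc and, at Rosa26, the transactivator M2rtTA. They were kept in MEF medium without doxycycline, so the cassette was not induced, and were not sorted. The cassette, the medium, the feeder cells and the cell type thus all separate the groups and cannot be told apart, and the ESC are a single line. The remaining 6 libraries are the same fibroblasts at day 3, 6 and 9 of doxycycline (DAY3, DAY6, DAY9), in ESC medium with ascorbic acid, sorted for the surface marker SSEA1 at day 6 and 9. All libraries carry one batch name.

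Accessible DNA away from gene starts lies mostly at enhancers, which bind transcription factors and differ between cell types much more than promoters do. In ESC the factors Oct4 (Pou5f1), Sox2, Nanog, Esrrb and Klf proteins keep one another and a wider set of pluripotency genes active. Fibroblast enhancers are known for AP-1, TEAD and RUNX factors, and fibroblasts make the extracellular matrix and respond to TGF-beta and inflammatory signals.

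The ESC lists held 86585 and 88980 peaks and the MEF lists 74444 and 64295, in the order of replicates 1 and 2. The difference of 18413 peaks exceeded the spread within either group. With 2 libraries against 2, the two-sided exact permutation p was 0.333, which is the smallest this design allows, so gained and lost regions are counts without a test. The read depth of the libraries is unknown. The commonest background pileup in a list, a stand-in for it, was 3.48 and 5.46 in ESC and 3.42 and 8.32 in MEF, and MEF replicate 2 stood apart with the fewest peaks and a median fold over background of 3.62, against 4.34 to 5.26 in the others. Without that library 34800 regions were gained and 42609 lost, but 1 MEF list then decides a loss, so the rule changes too. Without MEF replicate 1 the counts were 38824 gained and 38286 lost. Leaving out ESC replicate 1 gave 58548 gained and 25346 lost, and leaving out ESC replicate 2 gave 56428 and 25303. With all 4 lists reduced to their 64295 best peaks, 23749 were gained and 23439 lost, so the excess of gained regions depended on the lengths of the lists. In bulk chromatin, fewer cells with an open site and less opening per cell cannot be told apart.

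Cell identity was checked by peaks within 1 kb of either end of marker genes. Of 10 ESC markers, 9 had such a peak in both ESC lists and 3 in both MEF lists, namely Pou5f1, Sox2 and Tfcp2l1. Of 11 fibroblast or feeder markers, 7 had one in both MEF lists. Col1a1, Col1a2, Prrx1 and Pdgfrb had one in both ESC lists, while Col3a1, Postn, Lum and Dcn had one in neither ESC list. Of the latter, Lum had none in the MEF lists either, and Dcn had one in MEF replicate 1 only. How much the feeder fibroblasts gave to the ESC lists was not tested. Of 5 neural markers all had a gene-end peak in both ESC lists, as did 7 of 9 endoderm and trophoblast markers, 3 of 6 blood markers, 2 of 6 endothelial and 1 of 5 muscle markers. In both MEF lists these counts were 1, 2, 1, 0 and 0. The share of all genes with such a peak is not given here. On a narrower measure, 53.2% of 17492 genes had a start inside a shared region, 4.27% inside a gained and 1.22% inside a lost one. Many genes of any kind thus have a peak at an end in all 4 lists, and the marker counts alone cannot establish identity.

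Among the sequences that distinguish the sets are promoters whose start lay inside a gained or lost region. RefSeq promoters (GRCm38.p6, 250 bases before to 50 after the start) were at hand for 17492 of 21887 protein-coding genes, and each is printed in its gene's direction. Capitals mark matches, on either strand, to one of 7 motifs: octamer ATGCAAAT, SOX ACAATG, KLF GGGTGTGG, ESRRB CAAGGTCA, AP-1 TGANTCA, TEAD GGAATG and RUNX TGTGGTT. Gained promoters are shown for Nanog (chr6:122707239-122707538, plus strand), the homeodomain factor of naive pluripotency, Lin28a (chr4:134018767-134019066, minus strand), an RNA-binding protein of stem cells, and Cldn4 (chr5:134946885-134947184, minus strand), a tight junction protein.

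Nanog: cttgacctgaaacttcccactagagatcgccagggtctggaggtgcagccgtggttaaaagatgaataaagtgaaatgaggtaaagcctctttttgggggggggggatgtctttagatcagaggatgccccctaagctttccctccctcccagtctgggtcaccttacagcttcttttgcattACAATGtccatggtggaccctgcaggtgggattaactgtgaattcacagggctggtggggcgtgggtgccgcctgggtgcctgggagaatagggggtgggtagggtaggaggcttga

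Lin28a: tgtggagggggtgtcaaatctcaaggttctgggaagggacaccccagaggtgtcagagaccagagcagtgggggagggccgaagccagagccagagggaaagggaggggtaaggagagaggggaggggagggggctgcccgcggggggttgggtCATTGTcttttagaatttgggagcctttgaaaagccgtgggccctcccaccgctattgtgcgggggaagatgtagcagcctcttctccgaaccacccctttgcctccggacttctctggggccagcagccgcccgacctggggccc

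Cldn4: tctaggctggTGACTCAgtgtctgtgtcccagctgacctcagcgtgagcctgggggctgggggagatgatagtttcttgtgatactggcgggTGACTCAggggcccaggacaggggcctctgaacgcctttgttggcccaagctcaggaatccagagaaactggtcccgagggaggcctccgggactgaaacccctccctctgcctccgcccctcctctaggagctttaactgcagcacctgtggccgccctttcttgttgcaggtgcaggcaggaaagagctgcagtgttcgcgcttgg

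Nanog and Lin28a each hold the SOX letters once, and Cldn4 holds the AP-1 letters at 2 places. The regions over these starts had folds of 5.32 and 3.14 (Nanog), 5.80 and 4.72 (Lin28a) and 5.63 and 2.44 (Cldn4) in ESC replicates 1 and 2. Lost promoters are shown for the collagen genes Col6a1 (chr10:76725995-76726294, minus strand) and Col3a1 (chr1:45311288-45311587, plus strand), for Lpin3 (chr2:160880420-160880719, plus strand), a phosphatidate phosphatase, for Ankrd1 (chr19:36119795-36120094, minus strand), a classical YAP-TEAD target, and for Runx2 (chr17:44814578-44814877, minus strand), a skeletal transcription factor. Col3a1 and Runx2 rank high under a rule on the number of regions. The other lost ones were chosen after their values were seen, for their motifs. The gained ones, Nanog, Lin28a and Cldn4, were likewise chosen outside that rule, after their values were seen. Foxp1, Lef1, Col6a3, Il1r1 and Tgfbi rank high under that rule but hold none of the 7 motifs and are not shown. Nr5a2, with 1 TEAD match, is not shown either. All promoters printed here, gained and lost, hold a motif, so they overstate how often motifs occur.

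Col6a1: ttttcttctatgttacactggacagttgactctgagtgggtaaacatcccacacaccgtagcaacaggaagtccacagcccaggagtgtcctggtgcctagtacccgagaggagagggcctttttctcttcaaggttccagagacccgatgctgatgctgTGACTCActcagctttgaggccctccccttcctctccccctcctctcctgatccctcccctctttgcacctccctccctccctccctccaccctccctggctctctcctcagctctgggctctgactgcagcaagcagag

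Lpin3: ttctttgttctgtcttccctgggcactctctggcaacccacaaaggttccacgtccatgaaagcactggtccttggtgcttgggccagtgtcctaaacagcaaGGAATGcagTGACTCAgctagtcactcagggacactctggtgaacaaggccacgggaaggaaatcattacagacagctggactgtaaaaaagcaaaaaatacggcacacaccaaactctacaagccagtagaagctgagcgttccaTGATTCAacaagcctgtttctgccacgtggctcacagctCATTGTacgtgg

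Ankrd1: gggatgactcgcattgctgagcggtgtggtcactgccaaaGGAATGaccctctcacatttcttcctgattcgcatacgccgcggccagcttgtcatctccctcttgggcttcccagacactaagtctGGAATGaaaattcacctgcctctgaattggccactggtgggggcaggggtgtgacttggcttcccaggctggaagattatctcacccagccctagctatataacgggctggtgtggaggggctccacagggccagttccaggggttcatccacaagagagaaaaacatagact

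Runx2: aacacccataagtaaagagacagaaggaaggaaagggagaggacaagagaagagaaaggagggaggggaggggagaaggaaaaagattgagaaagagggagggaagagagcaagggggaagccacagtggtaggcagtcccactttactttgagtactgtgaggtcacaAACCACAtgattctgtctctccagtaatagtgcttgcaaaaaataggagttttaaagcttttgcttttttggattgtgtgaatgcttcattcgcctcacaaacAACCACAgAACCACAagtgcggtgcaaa

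Col3a1: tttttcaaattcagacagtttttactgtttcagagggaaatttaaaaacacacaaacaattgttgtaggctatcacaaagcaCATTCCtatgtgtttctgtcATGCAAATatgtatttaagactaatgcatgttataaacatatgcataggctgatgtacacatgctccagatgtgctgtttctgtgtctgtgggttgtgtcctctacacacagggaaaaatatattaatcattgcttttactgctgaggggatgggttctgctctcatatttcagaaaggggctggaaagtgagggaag

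Col6a1 holds the AP-1 letters once and Lpin3 at 2 places, Ankrd1 has 2 TEAD matches, Runx2 has 3 RUNX matches, and Col3a1 has 1 octamer and 1 TEAD match. Folds in MEF replicates 1 and 2 were 5.80 and 3.81 over the Col6a1 start, 9.72 and 8.57 over Lpin3, 7.78 and 6.55 over Ankrd1, 10.6 and 3.43 over Runx2, and 5.29 and 3.07 over Col3a1.

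Across all promoters and the 7 motifs, the AP-1 letters differed most between the sets. They were present in 26.9% (63 of 234) of promoters whose start lay in a lost region, with a Wilson 95% interval for counting error of 21.6% to 32.9%. These 234 promoters belong to 214 genes. Overlapping promoters of one gene, as at Ldb3 and Arhgef10l, can count the same match more than once. The interval treats promoters as independent, so it is too narrow. The share was 4.52% of 818 promoters in gained regions, 3.99% of 10748 in shared regions, 10.5% of 7702 in no region and 6.99% of all 21263. Lists of equal length gave 21.0% in lost regions and 4.04% in gained ones, and the upper 50% of each list by score gave 14.7% and 3.93%. TEAD letters were in 20.5% of lost, 14.2% of gained and 13.6% of all promoters. Octamer letters differed little, with 2.14% of lost, 2.20% of gained and 1.66% of all promoters, and SOX letters were in 11.1%, 7.82% and 11.0%. Base composition moved with these sets: the median number of CpG dinucleotides per promoter was 6 in lost, 12 in gained, 23 in shared regions and 3 where there was no region, and its part in the motif shares was not tested. A match is a run of letters and not evidence of binding. Distal regions were not searched.

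**Figure D1:**
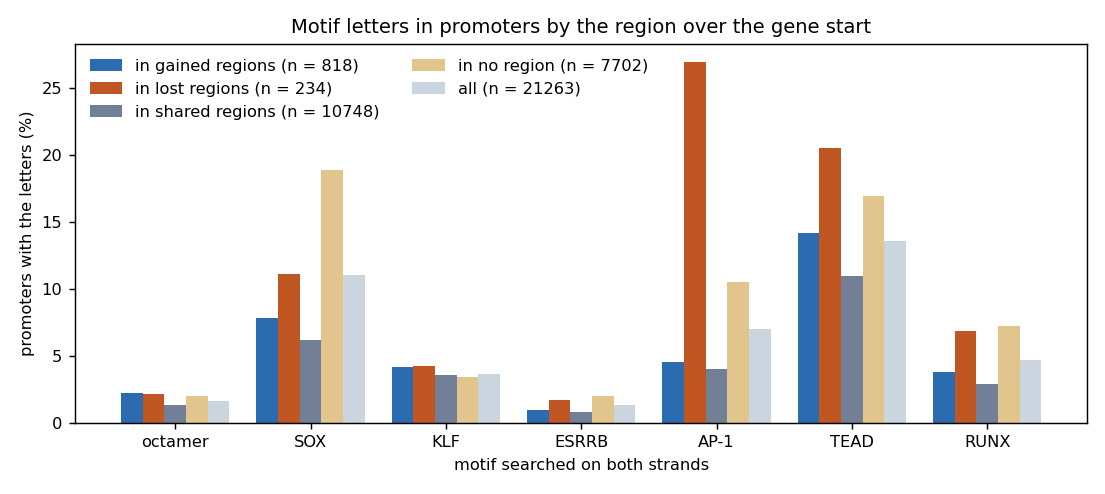
Share of promoters (y axis, percent) that hold the letters of each of 7 motifs (x axis), for promoters whose start lies in a gained, lost or shared region, in no region, and for all promoters. The AP-1 bar of the lost set, at 26.9%, is the tallest of its group, and the gained bar is at 4.52%.

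Both sets lay mostly away from gene ends. The gene table gives no strand, so either end of a protein-coding gene was counted. Of gained regions 6.42% (2154) and of lost regions 3.76% (882) lay within 1 kb of a gene end, against 54.6% of shared regions and 11.5% of all regions. The median distance to a gene end was 29.5 kb for gained and 34.5 kb for lost regions, 0.243 kb for shared regions and 23.9 kb overall. Gained regions lay inside a gene in 43.8% of cases, lost regions in 50.3% and shared regions in 76.7%. The far end of the scale was filled more by gained regions: 1606 of them (4.79%) lay over 500 kb from any protein-coding gene, against 602 lost regions (2.57%) and 3.29% of all regions. With lists of equal length these shares were 5.02% and 2.40%, and the gene-end shares 6.68% and 4.36%, so the order of the sets stayed.

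**Figure D2:**
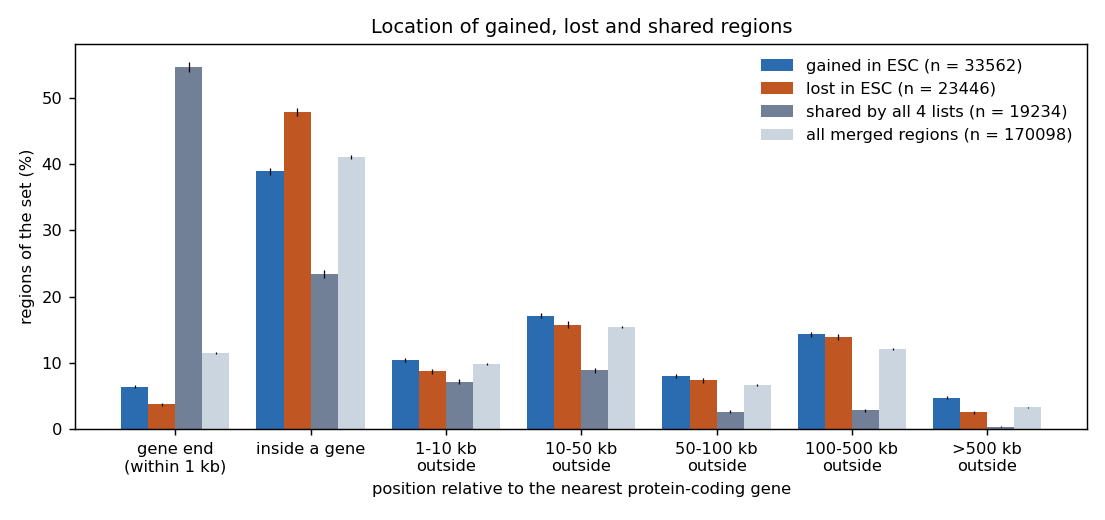
Share of each set's regions (y axis, percent) by position relative to the nearest protein-coding gene (x axis), with Wilson 95% intervals for counting error as thin lines. Inside a gene leaves out regions within 1 kb of its ends, which are counted as gene end. Shared regions concentrate at gene ends (54.6%), while gained (6.42%) and lost (3.76%) regions spread over gene bodies and distal sequence.

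Per library, the share of peaks at a gene end was 18.4% and 17.7% in ESC and 19.3% and 20.3% in MEF. The lists did not overlap, and ESC were 1.68 percentage points lower (exact permutation p = 0.333, the smallest possible). With lists of equal length ESC were 1.07 points higher, so the direction turned with list length. Peaks inside a gene made up 54.9% and 51.5% in ESC and 57.5% and 58.2% in MEF, a difference of -4.66 points (exact permutation p = 0.333).

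The best peak of a list in a region was also taller in shared regions than in either changing set. Shared regions were wider, with a median of 984 bp against 636 bp for gained and 578 bp for lost regions. The part of width in these folds was not tested. The median fold in ESC replicate 1 was 5.65 in gained and 8.33 in shared regions, and in ESC replicate 2 it was 4.91 and 6.90. In MEF replicate 1 it was 5.91 in lost and 8.53 in shared regions, and in MEF replicate 2 3.86 and 5.09. These folds are the authors' and are compared within a list only. Just outside the rule lay 6316 regions with a peak in both ESC lists and 1 MEF list, 46495 in 1 ESC list alone, 3618 in both MEF lists and 1 ESC list, and 33112 in 1 MEF list alone.

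Each region was assigned to the protein-coding gene nearest to it. Of 21887 genes, 10787 had at least 1 gained region, 8022 at least 1 lost region, 5724 both and 8802 neither. Long genes and genes with wide empty surroundings collected most. The median territory, the stretch nearer to a gene than to another coding gene, was 400.5 kb for genes with 5 or more gained regions and 45.0 kb for all genes. Across the 21857 genes with a territory, the number of gained regions had a Spearman correlation of 0.633 with territory and 0.462 with the number of lost regions, given as a description, since genes share the same libraries.

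The 15 genes with the most gained regions held 519 of them, 1.55% of the set. Tenm3, a teneurin that guides axon wiring, led with 41 gained and 18 lost regions. The 4 lists had peaks in 45 and 40 of its regions in MEF and in 76 and 81 in ESC. Its relative Tenm4 had 36 gained and 25 lost regions, with 47 and 47 in MEF and 79 and 67 in ESC. By the rule, a gained region has a peak in both ESC lists and in neither MEF list, and a lost region the reverse. Counts per list at genes picked for their gained or lost regions, here and below, thus restate that choice. They are no separate support.

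Auts2, a neuronal gene linked to Polycomb regulation, had 39 gained and 22 lost regions, and Adgrl2, a latrophilin adhesion receptor, had 39 and 10. Cntn5, a contactin of neurons, had 38 gained and only 3 lost regions, with peaks in 16 and 10 regions in MEF and 51 and 77 in ESC. The protocadherins Pcdh9 and Pcdh7 had 36 and 35 gained regions, the cadherin Cdh9 31 with 1 lost, and Lrfn5, a synaptic adhesion protein, 30 with 1 lost. Most of the sites at the cadherin family genes were distal: 33 of 35 at Pcdh7, 30 of 31 at Cdh9 and 32 of 36 at Pcdh9 lay outside the gene. By contrast all 33 gained regions of Pde4d, a cyclic AMP phosphodiesterase, lay inside it.

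Tbl1xr1, a corepressor subunit, had 37 gained and 22 lost regions, Immp2l, a mitochondrial peptidase subunit, 33 and 7, and Pard3, a polarity protein, 30 and 11. Rpia had 31 gained regions and Adam6a 30, but none lay in either gene. For 30 regions at each, the nearest gene of any type was a whole immunoglobulin locus, Igk beside Rpia and Igh beside Adam6a. The Igk locus held 56 gained and 2 lost of 128 regions (43.8% gained). The Igh locus held 42 gained and 1 lost of 187 (22.5% gained), near the 19.7% of all regions. At other leading genes another gene of any type was also nearer to many gained regions. These were 32 of 35 at Pcdh7, 28 of 31 at Cdh9, 24 of 30 at Lrfn5, 27 of 36 at Pcdh9 and 29 of 39 at Adgrl2. Tbl1xr1 had 26 of 37 such regions, Cntn5 22 of 38, Immp2l 18 of 33 and Tenm3 20 of 41. The fewest were at Pde4d (1 of 33) and Auts2 (8 of 39). The immunoglobulin loci hold many similar gene segments, and the counts are uncertain where reads fit several copies.

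The 15 genes with the most lost regions held 348 of them, 1.48% of the set. Lpp, a focal adhesion protein of mesenchymal cells, had 27 lost and 11 gained regions, 22 of the lost ones inside the gene. Peaks were in 54 and 41 of its regions in MEF and in 28 and 25 in ESC. Zeb2, a transcription factor of the mesenchymal state, had 27 lost and 18 gained regions, with 25 of the lost ones outside the gene. Its counts per list overlapped between groups, at 52 and 42 in MEF and 29 and 47 in ESC.

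Runx1, a RUNX transcription factor active in mesenchyme and blood, had 21 lost and 4 gained regions. Peaks were in 38 and 32 of its regions in MEF and in 18 and 10 in ESC. Adamts16, a matrix protease, had 21 lost and 3 gained (37 and 30 against 9 and 10). Gli3, the repressor arm of Hedgehog signalling, had 21 lost and 6 gained (37 and 35 against 17 and 25). Of the lost regions, another gene of any type was nearer to all 22 at Tbl1xr1 and to 20 of 22 at Trib2. The same held for 22 of 24 at Efnb2, 18 of 22 at Mctp2, 21 of 27 at Zeb2 and 20 of 26 at Flrt2. Runx1 and Adamts16 each had 12 of 21 such regions, and Arhgap26 and Macrod2 had 0. Flrt2 and Efnb2, membrane proteins of cell guidance, had 26 and 24 lost regions with 20 and 16 gained, Trib2, a pseudokinase, had 22 with 14 gained, and Arhgap26 had 23 with 10 gained. Macrod2 had 23 lost and 21 gained regions, and with regions assigned by the nearest gene end it had 7 lost regions. Mctp2 and the latrophilin Adgrl3 each had 22 lost regions, with 16 and 28 gained. Tenm4, Tbl1xr1 and Auts2 stood among the 15 genes of both directions. With lists of equal length 11 of the 15 gained genes and 12 of the 15 lost genes stayed in the leading 15. The gained counts then became 23 at Tenm3, 21 at Auts2, 22 at Adgrl2 and 15 at Pard3, and Pde4d and Tbl1xr1 led with 31 each.

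**Figure D3:**
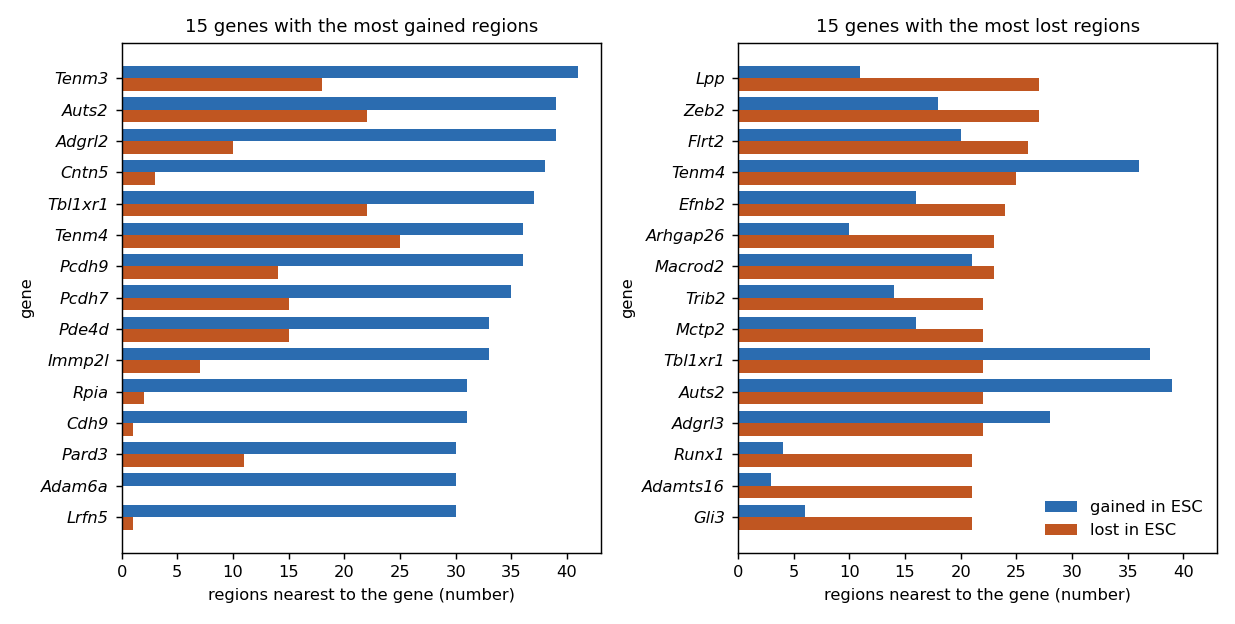
Number of gained and lost regions (x axis) for the 15 genes with the most gained regions (left) and the 15 with the most lost regions (right). Cntn5, Cdh9, Lrfn5, Rpia and Adam6a have almost no lost regions, and Runx1 and Adamts16 few gained ones, while Tenm4, Tbl1xr1 and Auts2 appear in both panels.

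Scaled to territory, compact genes came forward. Among genes with at least 5 gained regions, Dppa5a, an RNA-binding protein of pluripotent cells, had the highest density, with 5 gained regions in a 15 kb territory (33.3 per 100 kb). MEF lists had peaks in 0 and 1 of its regions and ESC lists in 6 and 5. Tdh, the threonine dehydrogenase on which mouse ESC metabolism depends, had 13.9 per 100 kb, with 0 and 0 regions in MEF and 8 and 5 in ESC. The others were Tor3a (20.0), the olfactory receptor gene Olfr486 (18.5), Arl14epl, Rbfa and Trim31 (15.6 each), Fbxo36 (14.3), Lrrc2 (13.9) and Mllt6 (12.8).

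Among genes with at least 5 lost regions, Ccl2, the monocyte chemokine, had the highest density, 15.0 per 100 kb, with peaks in 8 and 8 regions in MEF and 1 and 1 in ESC. Tgfbi, a TGF-beta-induced matrix protein, had 8.70 per 100 kb, as did Timp2, a metalloprotease inhibitor. Col4a2, a basement membrane collagen, had 8.63 and Ccn5, a matricellular protein, 8.62. The rest were Itpripl2 (14.7), Ms4a6d (13.2), Cavin3 of caveolae (10.0), Sbno2 (9.26) and Prg4, or lubricin (9.23).

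Some genes had regions of 1 direction only: 306 of the 2012 genes with 5 or more gained regions had no lost region, and 98 of the 1467 genes with 5 or more lost regions had no gained one. The largest of the first kind outside Igh was Sntg1, a syntrophin of neurons, with 28 gained regions (6 and 3 regions with a peak in MEF, 34 and 50 in ESC). Cox7c had 25, Elavl2, a neuronal RNA-binding protein, 23, and the potassium channel gene Kcnj6 18. The largest of the second kind was Col4a2, whose 12 lost regions all lay inside the gene (21 and 18 regions in MEF, 5 and 4 in ESC). Postn, Col5a1, Ttc32, Myo1d, Gadd45g, Sorcs2 and Maml3 followed with 10 lost regions each. Postn, encoding periostin, had peaks in 19 and 12 regions in MEF and 2 and 3 in ESC. These genes were chosen after their values were seen.

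For gene lists, each list's share of regions gained or lost was read against the 19.7% and 13.8% of all regions. The naive pluripotency factors had 143 gained and 37 lost of 407 regions, or 35.1% and 9.09%. All 15 had at least 1 gained region, against 49.28% of all genes. Nr5a2, a nuclear receptor that can stand in for Oct4, had 28 gained and 6 lost regions, with 12 and 9 regions in MEF and 48 and 46 in ESC. Sox2 had 17 and 7, Klf5 17 and 4, Esrrb 14 and 2 and Zfp42, the marker also named Rex1, 13 and 0. In all, 13 of 15 had more gained than lost regions, against 35.0% of all genes. Klf2 had 3 of each, and Klf4 had 6 gained and 9 lost regions. The Klf4 MEF lists (22 and 18 regions) were above the ESC lists (15 and 15). Over all 21887 genes, 2025 had a gained region at a gene end and 856 a lost one. In this list gained regions at a gene end were found at Nanog, Pou5f1, Klf5, Zfp42, Prdm14, Nr0b1, Sall4 and Tcl1.

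At Nanog 4 regions were gained and none lost, with folds of 2.50 to 6.11 in ESC replicate 1 and 2.40 to 4.18 in replicate 2. Prdm14, a repressor of differentiation genes, had 9 gained and no lost regions, with 0 and 0 regions in MEF and 12 and 12 in ESC. Pou5f1, encoding Oct4, had 2 gained regions outside the gene, 1 of them within 1 kb of its end, with folds of 5.60 to 7.69 and 4.43 to 4.92. Within the bodies of the 4 cassette genes the only gained or lost region was in Sox2 (chr3:34650441-34651370), which was lost, with MEF folds of 3.15 and 5.09. The MEF also carried these coding sequences in the cassette, so signal there cannot be assigned to the gene itself.

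The pluripotency-associated genes had 111 gained and 12 lost of 297 regions (37.4% and 4.04%), and all 20 had more gained than lost regions. Mycn, a Myc family transcription factor gene, had 19 gained and 3 lost regions, Fbxo15 18 and 3, Jarid2, a Polycomb partner, 12 and 3, Foxd3 9 and 1, Otx2, a factor of primed pluripotency, 8 and 1, and Trim71 8 and 0. Dppa4, with no peak in either MEF list, had peaks in 7 and 13 regions in ESC. Fgf4, an ESC growth factor gene, had 0 and 0 in MEF and 6 and 5 in ESC. In this list 15 of 20 genes had a gained region at a gene end, among them Utf1, Tdgf1, Lefty1 and Lefty2.

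Epithelial genes had 42 gained and 7 lost of 133 regions (31.6% and 5.26%). Cdh1, encoding E-cadherin, had 9 gained regions, 7 of them inside the gene, and no lost ones. Peaks were in 2 and 2 of its regions in MEF and in 14 and 13 in ESC. The region over one end of Cdh1 (chr8:106603052-106604344) had folds of 8.09 and 6.53. Grhl2, an epithelial transcription factor, had 7 gained and 1 lost, Dsp (desmoplakin) 6 and 0, Cldn4 4 and 2, and Epcam and St14 4 and 0 each. Ovol1, Cldn6, Ocln, Tjp3 and Rab25 had neither gained nor lost regions.

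Matrix and cytoskeleton genes showed the reverse, with 94 gained and 202 lost of 751 regions (12.52% and 26.9%), and 25 of 32 had more lost than gained regions, against 18.6% of all genes. Thbs1, encoding thrombospondin, had 15 lost and 3 gained regions, with 29 and 22 in MEF and 10 and 8 in ESC. Tnc (tenascin) had 12 lost and 5 gained, Col1a2 12 and 5, Fn1 (fibronectin) 13 and 8, and Cdh11 18 and 12. The neuronal and mesenchymal cadherin gene Cdh2 went the other way, with 29 gained and 17 lost. Lost regions lay at an end of 12 genes, including Col1a1, Col3a1, Col6a1, Col6a3, Postn, Vim, Acta2 and Tagln. At Acta2, encoding smooth muscle actin, the lost region over the gene had folds of 8.23 and 5.54.

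TGF-beta and inflammatory receptor genes had 34 gained and 96 lost of 316 regions (10.8% and 30.4%), and none of 18 had more gained than lost regions while 13 had more lost. Cxcl12, a chemokine, had 15 lost and 6 gained, Tgfb2, a ligand, 13 and 8, Smad3, its signal transducer, 10 and 2, the coreceptor Tgfbr3 9 and 3, and Inhba, an activin subunit, 8 and 5. Smad3 had peaks in 15 and 16 regions in MEF and 7 and 4 in ESC.

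Fibroblast transcription factors were split, with 158 gained and 164 lost of 838 regions (18.9% and 19.6%). Beside Runx1 and Zeb2, Foxp1 had 18 gained and 17 lost, Tcf4 22 and 12, Ebf1 19 and 11, and Nr2f1, a nuclear receptor, 18 and 5. Twist2, a mesenchymal factor, had no gained and 5 lost regions. AP-1 and TEAD-YAP genes had 53 gained and 57 lost of 307 regions (17.3% and 18.6%), with 8 and 8 at Jun, 9 and 8 at Tead1, 6 and 6 at Bach1, 4 and 6 at Ccn2 and 6 and 2 at Yap1. Ankrd1 had 5 lost and no gained regions. With lists of equal length the shares of these lists were 14.3% and 24.1% for fibroblast factors and 11.7% and 23.1% for AP-1 and TEAD-YAP genes, against 17.3% and 17.0% of all regions. Counted within 50 kb of the gene instead, fibroblast factors had 104 gained and 87 lost regions.

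Genes of LIF, FGF and BMP signalling lay near the background (19.7% gained and 14.9% lost of 437 regions). Spry2, an FGF feedback inhibitor, had 18 gained and 13 lost regions, Tcf7l1 12 and 7, Lef1 12 and 3, Dusp6 8 and 7, Id2 5 and 7 and Fgfr2 3 and 8. Chromatin regulators had 24.2% gained and 6.93% lost of 231 regions, led by Tet2, a 5-methylcytosine oxidase, with 19 gained and 4 lost (11 and 12 regions in MEF, 32 and 29 in ESC), Kdm4c, a histone demethylase, with 11 and 0, and the Polycomb subunits Eed with 6 and 0 and Mtf2 with 5 and 0. Of 39 Hox genes, which lie in 4 tight clusters with small territories, 14 (35.9%) had a gained and 8 (20.5%) a lost region. Over all protein-coding genes these shares were 49.28% and 36.65%. Of 125 Hox regions 18 were gained and 9 lost (14.4% and 7.2%), both below the shares of all regions. Widely expressed genes had 12 gained and 7 lost of 73 regions (16.4% and 9.59%), also below both. Of these 15 genes 3 (20.0%) had a gained and 3 (20.0%) a lost region. With lists of equal length the signalling list had 62 gained and 67 lost. The Hox genes then had 4 and 8 and the widely expressed genes 7 and 8, so gains no longer outnumbered losses in these 3 lists.

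**Figure D4:**
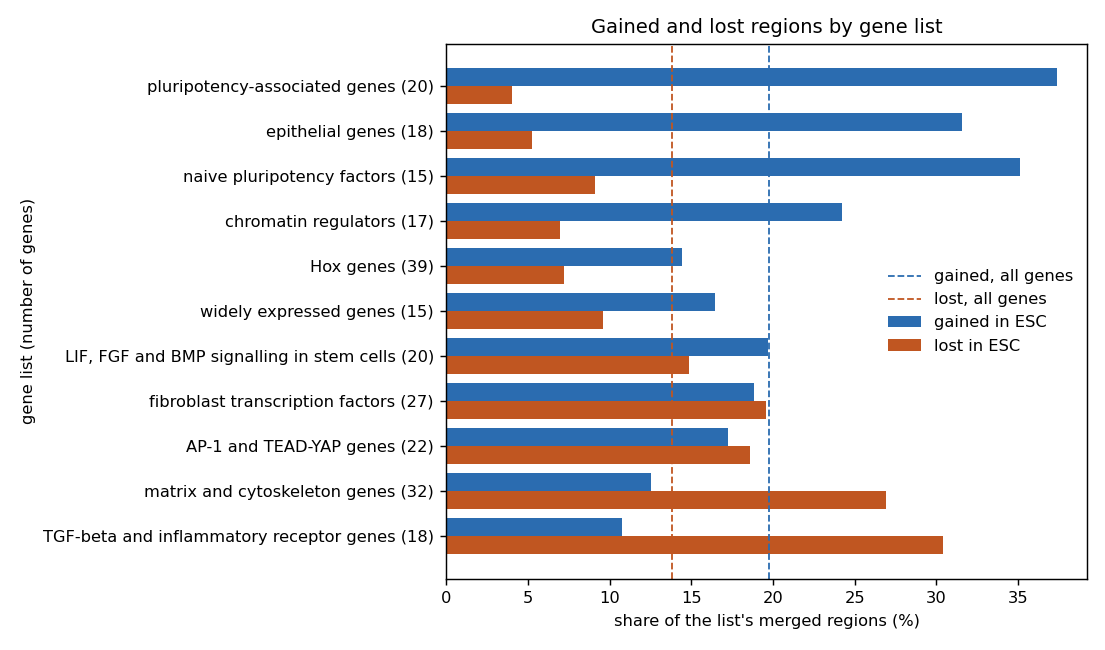
Share of the regions nearest to each gene list that were gained or lost (x axis, percent), for 11 lists (y axis, number of genes in brackets), with dashed lines at the shares of all regions, 19.7% and 13.8%. Pluripotency-associated genes are at 37.4% gained and 4.04% lost, and TGF-beta and inflammatory receptor genes at 10.8% and 30.4%.

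The regions ranked best by fold in both lists of their group were named by position. The best gained region lay 2.53 kb from Smgc (chr15:91863966-91864765), with folds of 24.1 and 19.6 in ESC. It had peaks in every later library of the MEF-derived cells, with folds of 10.3 and 8.06 at DAY3, 19.2 and 20.0 at DAY6 and 21.4 and 21.8 at DAY9. A region inside Tox (chr4:6968652-6969282) and one inside Grik2, a glutamate receptor gene, were likewise open from DAY3, and one 200.7 kb from Zfp804a as well. A region inside Lrp1b (chr2:40910545-40911388) had a peak in 1 DAY3 list and in all later ones.

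The remaining strong gained regions opened later or not at all along the series. The region 5.56 kb from Grin2b (chr6:135706760-135707657) had folds of 22.6 and 18.8 in ESC and of 4.37 and 3.64 at DAY9, with no earlier peak. Regions at Zfp972 and near Gm14410 and Gm14295, all on chromosome 2, had their first peaks at DAY6. The region inside Gm31714 (chr13:65414907-65415524) had folds of 22.4 and 20.5 in ESC and no peak in any other library. Zinc finger genes on these stretches of chromosomes 2 and 13 have near-identical copies, so these 4 values are uncertain.

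Strong lost regions were mostly distal. The first lay 314.8 kb from Fmr1 on chromosome X (chrX:68363281-68363702), with folds of 23.8 and 20.8 in MEF. The nuclear receptor genes Nr2f2 and Nr2f1 had lost regions at 84.4 kb and 610.6 kb, with folds of 22.0 and 17.5 and of 19.5 and 14.1. The Nr2f2 region kept peaks at DAY3 (9.36 and 11.8) and DAY6 (3.37 and 5.71), while the Nr2f1 region had none after MEF. The others lay 88.2 kb from Nectin3, 3.21 kb from Pgbd1, 29.6 kb from Vegfc, a lymphatic growth factor gene, 117.4 kb from C1d, and inside Il1rl1, Trpm6 and Pth2r. Only the regions at Pgbd1, Nr2f2 and Trpm6 had peaks in both DAY3 lists.

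Regions of a direction also lay in runs. Joined over gaps of up to 12500 bp, gained regions formed 217 clusters of 5 or more and lost regions 95, holding 3.75% and 2.21% of their sets. Lists of equal length gave 62 gained and 100 lost clusters, so which set had more clusters turned with list length. The largest gained cluster held 16 regions in 72.5 kb of chromosome X (chrX:50560390-50632853), with the olfactory receptor gene Olfr1324 nearest, and the next 13 regions near Pls3 (chrX:75728456-75770926). Clusters of 10, 9 and 9 gained regions lay near Spry2, in Esrrb and near Snx18. The Esrrb cluster (chr12:86464303-86504909) held 9 gained, no lost and no shared regions, and over the gene's 14 gained regions the median fold was 4.63 and 3.83 in the ESC replicates. Esrrb encodes a nuclear receptor of ESC self-renewal.

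The largest lost cluster held 10 regions near and in Tns1 (chr1:73998119-74076640), encoding the focal adhesion protein tensin. Clusters of 9, 8, 7 and 7 followed near Dapk1, a death-associated kinase, near Rxra, a retinoid receptor, near Plxna2, a semaphorin receptor, and at the chemokine genes Ccl2 and Ccl7 (chr11:82006648-82046006). At larger scale the sets were interleaved. Of 2652 windows of 1 Mb with a region, 2382 held both gained and lost regions, 236 only gained and 3 only lost. The window with the most gained regions (chromosome 6, from 140000001 to 141000000, around Plekha5 and Aebp2) held 52 gained and 26 lost. A zinc finger gene window on chromosome 4, from 147000001, held 45 gained and 3 lost, and one on chromosome 13, from 66000001, 43 and 1. The other 2 were on chromosome 10 (around Nudt4, 43 and 14) and 8 (around Rbpms, 42 and 9). The window with the most lost regions (chromosome 6, from 17000001 to 18000000, with Tes, the caveolin genes Cav1 and Cav2 and the receptor gene Met) held 43 lost and 14 gained. Next came windows around Rbfox2 and Myh9 on chromosome 15 (31 lost and 9 gained), around Rxra and Col5a1 on chromosome 2 (31 and 4), around Nxt1 on chromosome 2 (29 and 20) and around Auh and Gadd45g on chromosome 13 (28 and 4).

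Chromosome X had more gained per lost regions than any autosome. Of its 4346 regions, 28.1% were gained and 7.64% lost, or 3.68 gained per lost region, against 19.5%, 14.0% and 1.40 on the autosomes. Chromosome X held 2.83% and 3.04% of peaks in ESC and 2.28% and 1.68% in MEF. With lists of equal length the ratios were 2.77 and 0.986. Without MEF replicate 2, whose X share was the lowest, they were 1.31 and 0.804, and without MEF replicate 1 they were 2.63 and 0.990. Leaving out a MEF list also lets 1 list decide a loss, so these values change the rule as well as the library. The labels do not give the sex of the cells, and all 4 lists had peaks on chromosome Y. Among autosomes the ratio ran from 0.969 on chromosome 19 to 1.61 on chromosome 8.

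**Figure D5:**
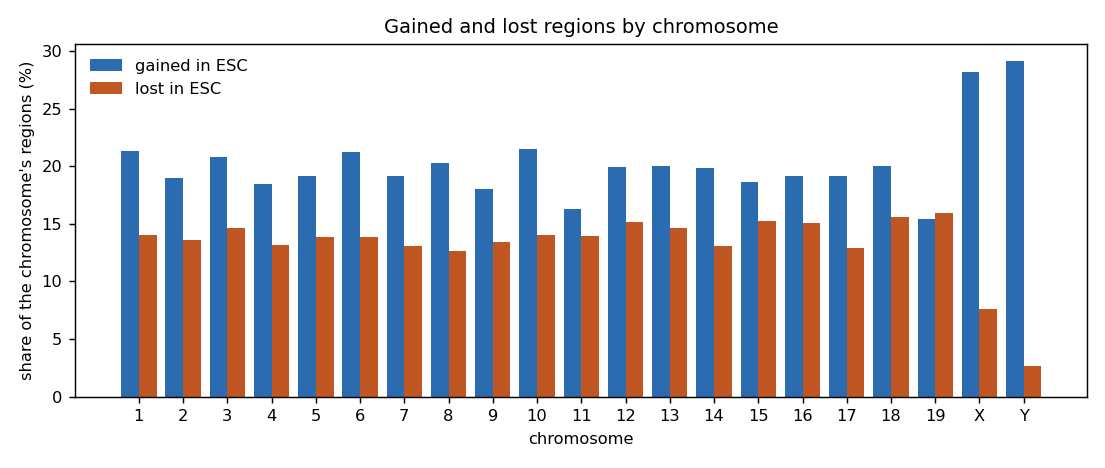
Share of each chromosome's regions that were gained or lost (y axis, percent), by chromosome (x axis). Autosomes have 15.4% to 21.4% gained, chromosome X has 28.1% gained and 7.64% lost, and chromosome Y has few regions (302).

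Of 1005 miRNA hairpins in the RefSeq table, 14 overlapped a gained and 16 a lost region. The share for other features of that length is not given here, so these counts are no result about miRNAs. The loci described here were chosen after their values were seen. A gained region (chr3:127544567-127545384) with ESC folds of 8.40 and 10.2 held hairpins of the miR-302 cluster, and another lay 0.653 kb from the first hairpin of the miR-290 cluster. Both families are known for their part in the ESC cell cycle and are shown because most share a seed (bases 2 to 8, in capitals). A lost region (chr9:21496467-21497442) with MEF folds of 6.97 and 5.87 held Mir199a-1, whose miR-199a-3p is abundant in mesenchymal cells.

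miR-302b-3p: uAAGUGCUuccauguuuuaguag

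miR-302d-3p: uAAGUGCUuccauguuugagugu

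miR-302c-3p: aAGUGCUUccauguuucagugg

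miR-294-3p: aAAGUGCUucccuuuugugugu

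miR-295-3p: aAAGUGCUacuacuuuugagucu

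miR-199a-3p: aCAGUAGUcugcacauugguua

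The seed AAGUGCU is common to miR-302b-3p, miR-302d-3p, miR-294-3p and miR-295-3p. The miR-302c-3p entry starts one base later in the same run of letters, and miR-199a-3p has another seed. From the hairpin nearest to the gained region at the miR-290 cluster, miR-290a-3p has the seed AAGUGCC and is not printed. The hairpins of miR-302d, miR-294 and miR-295 lay outside gained regions, at 0.24, 2.67 and 2.8 kb.

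Part of each set was already present in, or still present in, the intermediate libraries. Of gained regions 8.67% had peaks in both DAY3 lists, 22.9% in both DAY6 and 38.0% in both DAY9 lists. Of lost regions 12.7%, 7.04% and 6.72% did. Sorting and culture differ between these stages, and their part was not tested. At DAY9 the epithelial list stood at 30 of 42 gained regions (71.4%), the widely expressed list at 8 of 12 (66.7%), the AP-1 and TEAD-YAP list at 33 of 53 (62.3%), naive factors at 55 of 143 (38.5%) and matrix genes at 28 of 94 (29.8%). Of the genes with the most gained regions, Adgrl2 had 18 of 39 and Tbl1xr1 17 of 37 at DAY9, Tenm3 8 of 41, Pcdh9 2 of 36 and Lrfn5 2 of 30. Among lost regions Tenm4 kept 7 of 25 and Zeb2 6 of 27 at DAY3, while Trib2 and Mctp2 kept 1 of 22 each.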

How the data were processed

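ATAC-seq peaks of 2 MEF and 2 ESC libraries were compared, and those of the other 6 libraries were used as a description. Per the submitters' processing notes, Bowtie2 2.3.2, MACS2 2.1.1, deepTools 2.3.6 and the build mm10 were used, with no roles given. Filters, the handling of duplicates and the transposase offset are not given in the sources used here. The authors deposited one list per library, with a score, a fold over background (a linear ratio) and −log10 p- and q-values for each peak, with no −log10 p-value under 5. Peaks were listed per library, not for pooled replicates. The background pileup was recovered from the deposited fold and −log10 p-value with a tolerance of 0.01. Otherwise scores and folds ranked or described peaks within a list. Folds were compared between lists only as the median per list and in the check of replicate numbers below.

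Lists were merged with Python 3.11.15, pandas 2.3.3 and bedtools 2.31.1. Genes were RefSeq protein-coding genes of GRCm38.p6 on chromosomes 1 to 19, X and Y. The gene table has no strand, so distances are to either gene end, where the design had named gene starts. On simulated lists the scripts recovered the regions added and removed. Named genes are those with the most gained or lost regions, in number and per 100 kb of territory, the regions best by fold, the largest clusters and windows, and up to 6 members per list with the most regions. Other members were named after their values were seen. The members and lists were chosen with earlier results of these data known. All 243 list genes matched, 2 through a synonym. Whether replicates were separate cultures is not stated, so p-values measure only the spread between these libraries. Replicate numbers did not pair the libraries: the deviations of same-numbered libraries had r = -0.007 over 16875 shared regions.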

Additional observations from a re-analysis of the deposited data

How the results depend on the processing

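Read depth is unknown, groups have 2 libraries, and an absent peak does not show closed chromatin. Counts of regions moved with the threshold: the upper 50% of each list by score gave 16974 gained and 11583 lost. Leaving out 1 library gave 34800 to 58548 gained (highest without ESC replicate 1) and 25303 to 42609 lost (highest without MEF replicate 2), because a single list then decides presence. The difference in gene-end share turned to 1.07 points with lists of equal length.

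Gained regions at a gene end were 10.9% within 2.5 kb and 7.69% with 50% of the region covered, and 5.87% to 8.23% with 1 library left out. Lost regions were at 7.89%, 4.52% and 3.99% to 4.51%, and at 4.36% with equal lists. Median distances were 11.8 kb (gained) and 13.5 kb (lost) to a gene of any type, 31.0 and 32.7 kb with equal lists, 25.8 to 31.6 kb and 32.6 to 35.0 kb with 1 library left out, and 31.8 kb for lost regions in the upper 50%. The gained minus lost difference of fibroblast factors was 17 within 50 kb, and with equal lists it was -4 for Hox, -5 for LIF, FGF and BMP and -1 for widely expressed genes. For the AP-1 share of lost promoters, alternatives chosen after the data were seen gave 14.7% to 27.9%. Clusters numbered 682 and 401 (gained and lost) with gaps of up to 25 kb, and 62 and 100 with equal lists.

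A replicate block on the number gave the same mean differences, 18413 peaks, with an exact sign permutation p of 0.5, the smallest 2 pairs allow, and by construction the same gained and lost regions.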

Other observations

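Gene families of sensory receptors had many gained and few lost regions. Regions nearest to 1110 olfactory receptor genes (Olfr) were gained in 33.6% of cases and lost in 4.84% (340 and 49 of 1013), and those nearest to 353 vomeronasal receptor genes (Vmn) in 31.9% and 2.34% (205 and 15 of 642), against 19.7% and 13.8% of all regions. Collagen genes had the opposite balance, 12.7% gained and 27.1% lost (85 and 181 of 667). Zinc finger genes of the Zfp series had 19.6% gained and 9.22% lost. The families were picked after the data were seen, and receptor and zinc finger genes have similar copies, so their counts are uncertain.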
